A study of Nasonia vitripennis x Nasonia giraulti with 6 samples.

Results

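The 100 genes with the most RNA-seq reads in adult hybrid females were described across reciprocal crosses of the jewel wasps *N. vitripennis* (Nv) and *N. giraulti* (Ng), 2 species of *Nasonia*. Members were the 100 of 16505 genes with the highest mean CPM (counts per 1000000 counts of a library) over 5 libraries. In F1VG females the mother was Nv and the father Ng, and in F1GV females the mother was Ng and the father Nv. All came from the Nv strain AsymCX and the Ng strain R16A, and each library was made from the whole bodies of 10 pooled females taken 24 h after eclosion. The labels describe the replicates of a cross as independent collections. Replicates 1, 2 and 3 of F1VG and replicates 1 and 3 of F1GV were analysed, while F1GV replicate 2 was set aside by the authors and was not analysed here.

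*Nasonia* is haplodiploid, so daughters arise from fertilised eggs and carry a genome of each parent, and the reciprocal crosses differ in which species supplied the mother. In adult insects the messages that take up most of a library usually encode the translation machinery, muscle and cuticle proteins, enzymes of energy metabolism and, in females, products of the ovary and the fat body. Adult females of this parasitoid also make venom proteins that are injected into the fly host. Which of these the 100 genes encode was not determined, because their OGS2 (official gene set 2) IDs matched 0 entries of the reference gene table and are not paired with names in the counts. For the same reason the labelled tissue was not checked against markers, and no gene is given a role. None of the 100 genes is among the 61 super *cis*- genes that the study annotated, of which the most abundant ranked 1772. With only 61 genes on that list beside 16505 in the counts, this absence says little about the members.

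Library totals ran from 35337246 to 55707560 estimated counts. The lowest count of any member in any library was 8204. Counting error alone is 1.1% of this value if reads are taken as independent. The differences of 25% and more described here are much larger than that. Libraries of replicate 1 stood apart from the others in both crosses, and every comparison is therefore also given within replicate 1 and within replicates 2 and 3. This split was seen in the same counts before, so no p-value is attached to it. In RNA from whole bodies, fewer cells of a type and less RNA per cell cannot be told apart.

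The levels of the 100 genes covered a 7.02-fold range of mean CPM, with a steep start and a long flat tail. The most abundant gene, Nasvi2EG006904, had a mean of 7267 CPM, the tenth had 2981 CPM and the last had 1036 CPM. Only 6 members exceeded 4000 CPM and 25 exceeded 2000 CPM, while 50 were below 1500 CPM. Their median was 1490 CPM, against 28.9 CPM over the 12435 genes kept for testing. CPM is not divided by gene length, so these ranks order genes by reads and not by numbers of transcripts.

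Nasvi2EG006904 had 5506 and 5693 CPM in replicate 1 of F1VG and F1GV. It had 8546 and 8716 CPM in F1VG replicates 2 and 3 and 7875 CPM in F1GV replicate 3. The second gene, Nasvi2EG002830, had 5487 and 5540 CPM in replicate 1 of F1VG and F1GV, and 8652, 8378 and 6818 CPM in F1VG replicates 2 and 3 and F1GV replicate 3. Both genes were thus lower in replicate 1 of either cross than in any other library, and the crosses overlapped. The fourth gene, Nasvi2EG010431, was nearly level, with 4077 and 4332 CPM in replicate 1 of F1VG and F1GV and 4795, 4904 and 4457 CPM in F1VG replicates 2 and 3 and F1GV replicate 3. The fifth, Nasvi2EG034576, ran the other way from the leading pair. It had 5565 and 5194 CPM in replicate 1 of F1VG and F1GV, 3093 and 2959 CPM in F1VG replicates 2 and 3, and 4724 CPM in F1GV replicate 3. Nasvi2EG034576 was therefore the highest gene of F1VG replicate 1, Nasvi2EG002830 that of F1VG replicate 2, Nasvi2EG006904 that of F1VG replicate 3 and F1GV replicate 1, and Nasvi2EG010626, the third by mean CPM, that of F1GV replicate 3.

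**Figure D1:**
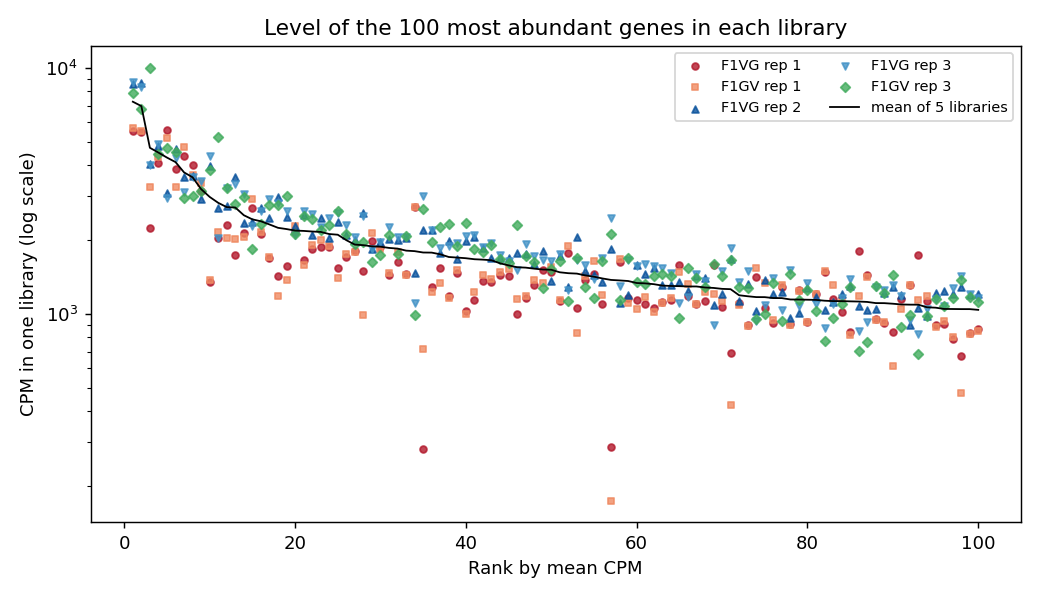
CPM (log scale) of each of the 100 genes in each of 5 libraries, against rank by mean CPM, with the mean as a line. Levels drop from 7267 to 2981 CPM over the first 10 ranks and then slowly to 1036 CPM, and the points far under the line are replicate 1 libraries, down to 174 CPM for Nasvi2EG003943.

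The lower limit of the list cut through a dense run of genes. The last members were Nasvi2EG002564, Nasvi2EG003365 and Nasvi2EG010059, with mean CPM of 1042.9, 1042.8 and 1035.7. The first genes left out were Nasvi2EG020506, Nasvi2EG006548 and Nasvi2EG018623, with 1033.7, 1033.3 and 1032.6 CPM. Each library's own 100 highest genes included from 82 to 90 members, and 65 members were among the 100 highest of all 5 libraries. One member, Nasvi2EG007721, was among the 100 highest of 1 library only.

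In replicate 1 the members held 16.05% of all counts in F1VG and 16.05% in F1GV. They held 19.61% in F1VG replicate 2, 20.13% in F1VG replicate 3 and 20.11% in F1GV replicate 3. The share averaged 16.05% over replicate 1 (n = 2) and 19.95% ± 0.293 (SD, n = 3) over replicates 2 and 3, whereas the means of the crosses were 18.6% ± 2.22 (SD, n = 3) in F1VG and 18.1% ± 2.88 (SD, n = 2) in F1GV. The crosses overlapped, and libraries of replicate 1 lay below all others. The 95% Wilson interval of each share was at most 0.0248 points wide and covers only the counting error of independent reads. These reads carry no molecular identifiers and may be copies of one molecule, so the interval may be too narrow even for that.

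This difference of 3.91 points was the balance of gains and losses. A total of 73 members were higher on average in replicates 2 and 3 and added 5.11 points, and 27 were lower there and took away 1.21 points. By mean log2 CPM, 73 members, 69 of the next 100 genes by level and 5528 of 12435 tested genes were higher in replicates 2 and 3. The 5 largest additions came from Nasvi2EG010626 (0.329 points), Nasvi2EG006904 (0.278 points), Nasvi2EG008304 (0.271 points), Nasvi2EG002830 (0.244 points) and Nasvi2EG004175 (0.212 points). Together they made 26.1% of all additions. That of Nasvi2EG010626 rested largely on F1GV replicate 3, with 10002 CPM against 4067 and 4036 CPM in F1VG replicates 2 and 3. The largest losses were −0.179 points for Nasvi2EG034576, −0.152 for Nasvi2EG002950, −0.133 for Nasvi2EG023364, −0.0656 for Nasvi2EG003712 and −0.0607 for Nasvi2EG034404. Because the mean CPM that chose the members gives 3 of its 5 columns to replicates 2 and 3, a gene high there was favoured. When the list was chosen from replicate 1 alone, 84 of the 100 genes remained and the difference was 2.39 points. The list then held 16.5% of counts in replicate 1 and 18.9% in replicates 2 and 3. With equal weight of replicate 1 and replicates 2 and 3 the difference was 3.66 points.

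**Figure D2:**
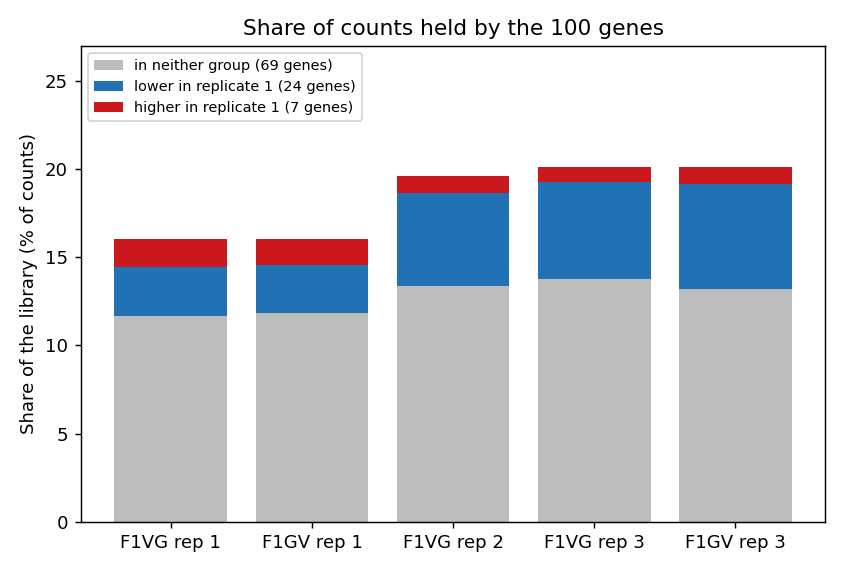
Share of each library's counts (percent, bars from 0) held by the 100 genes, divided into 24 genes lower in replicate 1, 7 higher in replicate 1 and 69 in neither group. The bars reach 16.05% in replicate 1 of both crosses and 19.61% to 20.13% in the other libraries, and the 24 genes take 2.75% to 2.78% in replicate 1 against 5.28% to 5.93% elsewhere.

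The reciprocal crosses were compared to ask whether the direction of the cross moves the most abundant messages. All 100 members passed the filter on low counts. With edgeR's quasi-likelihood test, 0 of the 100 members passed an adjusted p of 0.05, where 0.0241% of all tested genes did. The count of members was also 0 at an unadjusted p under 0.05, where 2.42% of tested genes were, and 0 with DESeq2, which called 66 genes in all. The smallest unadjusted p among members was 0.142. The median log2 fold change of F1VG over F1GV was 0.048 over the members and −0.023 over all tested genes. The 95% interval of the fold change lay inside a 2-fold difference in either direction for 68 members (54.3% of tested genes), so a difference of that size was not excluded for the other 32. When a term for replicate 1 was added to the model, 0 members passed (0.684% of tested genes), 7 had an unadjusted p under 0.05 (11.6% of tested genes) and 97 had an interval inside 2-fold (87.4% of tested genes).

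Inside replicate 1 the crosses were close. The median absolute log2 ratio of F1VG to F1GV was 0.069 over the members and 0.13 over all tested genes, and 6 members differed by 1.5-fold or more (7.5% of tested genes). Between F1VG replicate 2 and F1GV replicate 3 the median was 0.17 and 6 members differed that much (11.8% of tested genes). Between F1VG replicate 3 and F1GV replicate 3 the median was 0.12 and 5 members did (8.66% of tested genes). For comparison, F1VG replicates 2 and 3, which share the cross, had a median of 0.10 and 1 such member (4.3% of tested genes). The order of the members was also kept within these pairs, with a Spearman's rho across the 100 genes of 0.929 in replicate 1 and of 0.899, 0.949 and 0.937 in the pairs of replicates 2 and 3, against 0.469 to 0.575 for pairs that joined replicate 1 to the others. Genes are not independent replicates, so these values describe the libraries only.

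No member differed by 1.5-fold or more in the same direction in replicate 1 and in both F1VG replicates 2 and 3 against F1GV replicate 3, a criterion met by 1.79% of tested genes. With a difference of at least 25%, a threshold chosen after the values were seen, 2 members met it (5.94% of tested genes), Nasvi2EG010626 with F1VG lower and Nasvi2EG036430 with F1VG higher. Conversely, in 70 members the higher cross was less than 25% above the lower in every one of these pairs, as in 50.3% of tested genes and in 69 of the next 100 genes by level. Within 10% there were 26 members, against 12% of tested genes. The count of steady genes was thus nearly the same in the next 100 genes. Across the members, the log2 ratio in replicate 1 and the mean log2 ratio in replicates 2 and 3 had a Spearman's rho of −0.050 and a Pearson's r of 0.15 (n = 100 genes), against a rho of 0.25 over all tested genes.

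**Figure D3:**
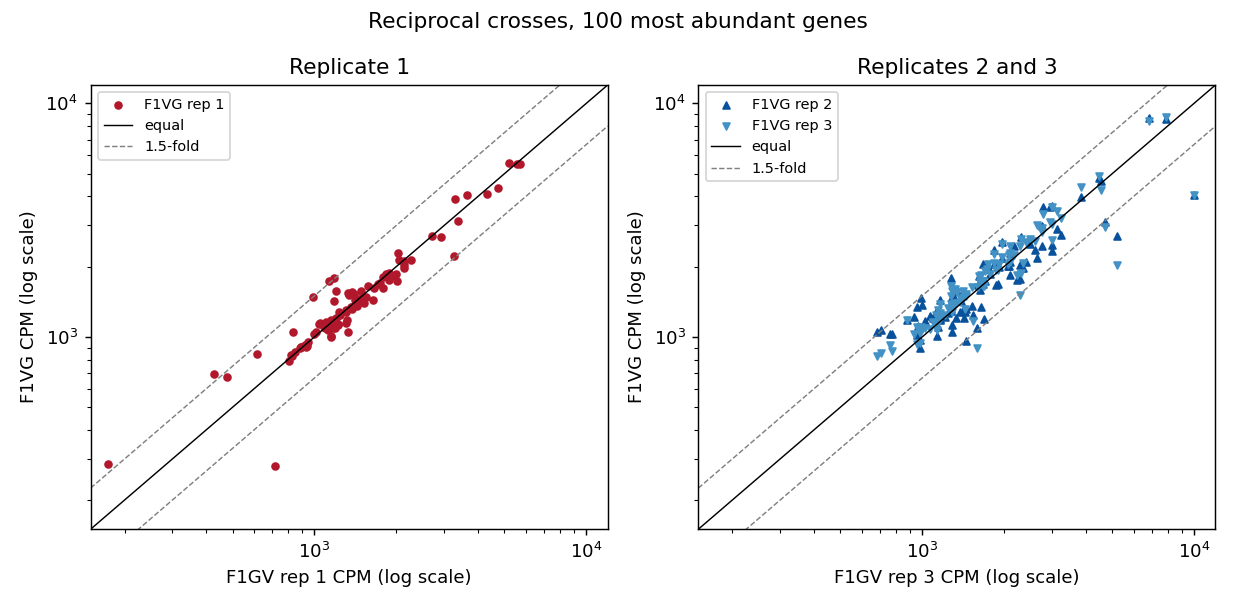
CPM of the 100 genes in F1VG against F1GV (log scales), in replicate 1 on the left and in replicates 2 and 3 on the right, with the line of equal level and dashed lines at 1.5-fold. In replicate 1, 6 genes lie beyond 1.5-fold, and on the right 6 genes do so for F1VG replicate 2 and 5 for F1VG replicate 3.

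Nasvi2EG010626 showed the widest gap between the crosses that kept one direction. It had 2223 CPM in F1VG replicate 1 and 3275 CPM in F1GV replicate 1, and 4067 and 4036 CPM in F1VG replicates 2 and 3 against 10002 CPM in F1GV replicate 3. F1VG was lower each time, by 1.47-fold in replicate 1 and by 2.46-fold and 2.48-fold in the other pairs, but F1VG replicates 2 and 3 were above F1GV replicate 1, so the crosses overlapped. In edgeR the log2 fold change was −0.99 (SE 0.58, adjusted p 0.99985), or −1.03 (SE 0.22, adjusted p 0.145) when the replicate 1 term was included. F1GV replicate 3 was 2.46-fold above the next library, and without it the log2 fold change was 0.16.

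Nasvi2EG009254 was also set apart by F1GV replicate 3. It had 5208 CPM there, against 2024 and 2140 CPM in replicate 1 of F1VG and F1GV and 2692 and 2037 CPM in F1VG replicates 2 and 3. In replicate 1 the crosses were within 1.06-fold of each other. Its log2 fold change in edgeR was −0.76 (SE 0.45, adjusted p 0.99985), and 0.15 without F1GV replicate 3.

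Nasvi2EG036430 was higher in F1VG each time. It had 1484 CPM in F1VG replicate 1 against 988 CPM in F1GV replicate 1, and 2559 and 2494 CPM in F1VG replicates 2 and 3 against 1962 CPM in F1GV replicate 3. The ratios were 1.5 in replicate 1 and 1.30 and 1.27 in the other pairs, while over all libraries the crosses overlapped. Its log2 fold change in edgeR was 0.53 (SE 0.45, adjusted p 0.99985).

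Of the 6 members past 1.5-fold in replicate 1, 2 were also among the 8 past it in a pair of replicates 2 and 3. The 6 were Nasvi2EG004175, lower in F1VG, and Nasvi2EG036430, Nasvi2EG034404, Nasvi2EG034405, Nasvi2EG017534 and Nasvi2EG003943, higher in F1VG. In F1VG replicate 3 against F1GV replicate 3 all 5 were lower in F1VG: Nasvi2EG009254, Nasvi2EG010626, Nasvi2EG034487, Nasvi2EG034576 and Nasvi2EG013099. Nasvi2EG020214 was past 1.5-fold only for F1VG replicate 2, at 956 CPM against 1447 CPM in F1GV replicate 3, while F1VG replicate 3 had 1500 CPM. Its replicate 1 libraries were as low, at 909 and 895 CPM in F1VG and F1GV. Only Nasvi2EG034404 and Nasvi2EG034405 were past 1.5-fold in replicate 1 and in a pair of the other replicates, and 88 members were in none of these pairs. The shares of all tested genes in these combinations of pairs were not computed, so the counts describe the members only.

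In 4 members the range of the F1VG libraries and that of the F1GV libraries were disjoint, as in 10.9% of tested genes. These genes were named after their values were seen. Nasvi2EG003216 had from 1505 to 1793 CPM in F1VG and 1336 and 1276 CPM in F1GV, and Nasvi2EG008139 had from 1151 to 1187 CPM in F1VG and 1048 and 879 CPM in F1GV. Nasvi2EG013911 had from 1865 to 1962 CPM in F1VG and 1837 and 1732 CPM in F1GV. Nasvi2EG013831 was the only one lower in F1VG, with 1172 to 1237 CPM against 1322 and 1537 CPM in F1GV. None passed the test, and the edgeR adjusted p with the replicate 1 term was at least 0.406 in each.

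Replicate 1 differed from the other libraries far more than the crosses differed. Both replicate 1 libraries lay below all others for 66 members (30.3% of tested genes) and above all others for 21 (41.4% of tested genes). The median difference of mean log2 CPM, replicate 1 minus replicates 2 and 3, was −0.34 over the members, −0.26 over the next 100 genes by level and 0.10 over all tested genes. With a difference of at least 1.5-fold besides, 24 members were lower in replicate 1 and 7 were higher, where 18.9% of tested genes were lower and 18.9% higher. At 2-fold 8 members were lower (9.19% of tested genes) and 1 was higher (3.57%). With TMM (trimmed mean of M-values) factors the median of all tested genes moved from 0.10 to −0.019 and that of the members to −0.46. The members stood 0.44 to 0.45 below all genes under every scaling tried. A factor moves all genes of a library alike, so scaling could hardly change this gap. With TMM factors the split was 36 members lower and 4 higher, against 22.9% and 12.8% of tested genes. Nasvi2EG034576, Nasvi2EG023157 and Nasvi2EG000020 were no longer counted as higher. The size of the imbalance depended on how the list was chosen. With equal weight of replicate 1 and replicates 2 and 3, 96 of the 100 genes remained and the imbalance was nearly the same. By the same 1.5-fold criterion 22 genes were then lower and 7 higher. Of that list 62 lay below and 22 above all other libraries, and the median difference was −0.31. When the list was chosen from replicate 1 alone, which favours genes high there, 16 genes were lower and 15 higher. Of these 100 genes, 50 lay below and 33 above all other libraries, and the median difference was −0.17.

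**Figure D4:**
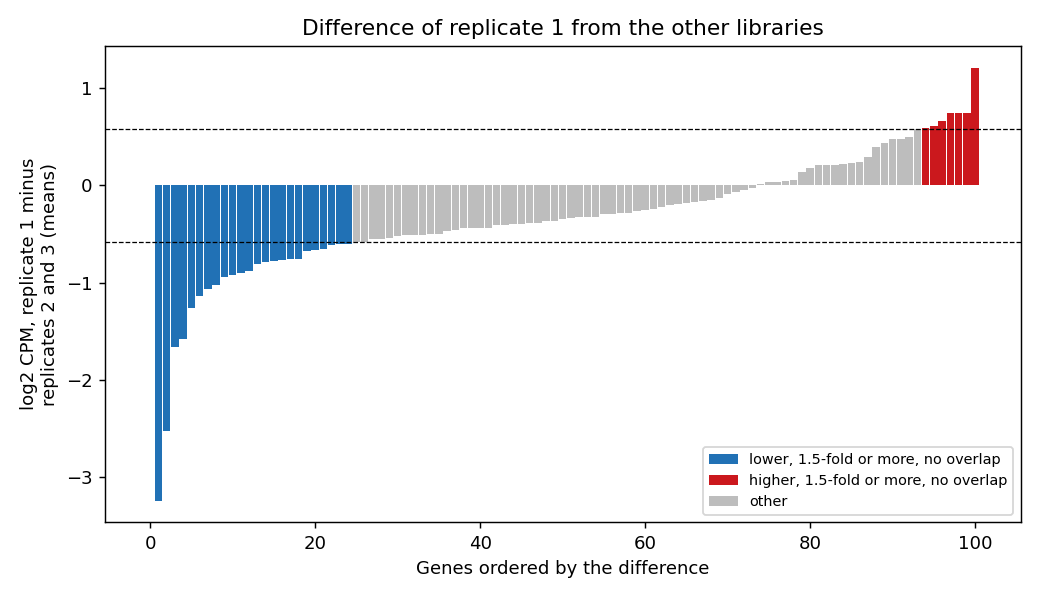
Difference of mean log2 CPM between replicate 1 (n = 2) and replicates 2 and 3 (n = 3) for the 100 genes in order, with dashed lines at 1.5-fold. The 24 blue genes run from −3.24 to −0.60 and the 7 red genes from 0.59 to 1.21, and 73 of 100 bars are below 0.

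The 24 members lower in replicate 1 had a median fold of 1.79, and they ranged in rank from 3 to 98. The gap was widest for Nasvi2EG003943, with 286 and 174 CPM in replicate 1 of F1VG and F1GV and 1836, 2453 and 2104 CPM in F1VG replicates 2 and 3 and F1GV replicate 3. It was 9.48-fold lower in replicate 1, where it ranked 642 in F1VG and 1339 in F1GV, against rank 23 in F1VG replicate 3. Nasvi2EG004175 had 281 and 716 CPM in replicate 1 of F1VG and F1GV and 2186, 3020 and 2654 CPM in the other libraries in the same order, a 5.78-fold difference. Within replicate 1 these genes also differed between the crosses, and in opposite directions, since Nasvi2EG003943 was 1.64-fold higher and Nasvi2EG004175 was 2.54-fold lower in F1VG. In replicates 2 and 3 the crosses were within 1.22-fold of each other for both.

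Nasvi2EG017534 had 693 and 427 CPM in replicate 1 of F1VG and F1GV, and 1672, 1840 and 1652 CPM in F1VG replicates 2 and 3 and F1GV replicate 3. Nasvi2EG002564 had 670 and 477 CPM in the former and 1279, 1415 and 1372 CPM in the latter. Both were higher in F1VG than in F1GV within replicate 1, by 1.62-fold and 1.40-fold, and nearly equal in the other pairs. Nasvi2EG008304 differed from these in being level between the crosses within replicate 1, at 1349 and 1364 CPM, below 3970, 4389 and 3830 CPM in F1VG replicates 2 and 3 and F1GV replicate 3, a 2.99-fold difference. Of the 24 members lower in replicate 1, 14 were steady between the crosses in the sense given above.

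Among the 7 members higher in replicate 1, Nasvi2EG002950 had the widest gap. It had 2707 and 2710 CPM in replicate 1 of F1VG and F1GV, and 1465, 1100 and 989 CPM in F1VG replicates 2 and 3 and F1GV replicate 3, which makes it 2.32-fold higher in replicate 1. Nasvi2EG020626 had 1471 and 1496 CPM in those libraries and 1030, 873 and 772 CPM in the rest. Nasvi2EG000020 had 1440 and 1414 CPM, and 1032, 928 and 763 CPM in the rest. F1GV replicate 3 was the lowest library in these 3 genes and in Nasvi2EG034404 and Nasvi2EG034405. For Nasvi2EG034576 and Nasvi2EG023157 the lowest was F1VG replicate 3. Nasvi2EG034404 had 1792 and 1176 CPM in replicate 1 of F1VG and F1GV and 1076, 852 and 702 CPM in the others, with F1VG replicate 1 standing 1.52-fold above the next library. Nasvi2EG034405 followed the same course, with 1739, 1136, 1051, 827 and 683 CPM in that order. The IDs of this pair are consecutive, and the ratio of their counts stayed between 1.02 and 1.04 in all 5 libraries. Whether they share reads was not tested, and each is counted as a member of its own in the counts given here.

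**Figure D5:**
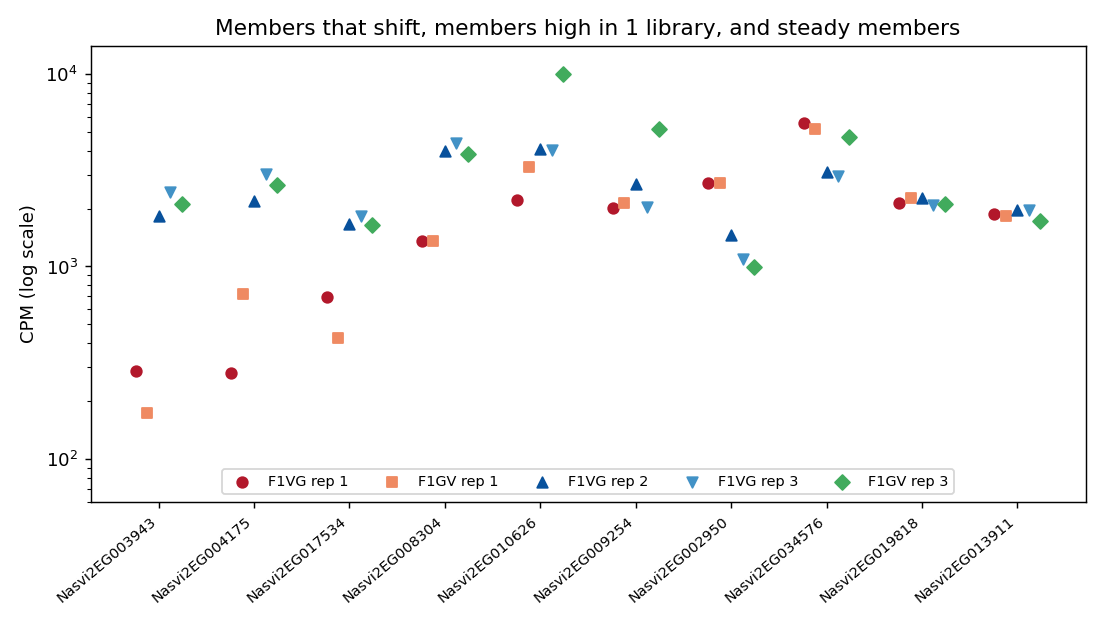
CPM (log scale) of 10 members in each of the 5 libraries. Replicate 1 of both crosses lies under the other libraries in the first 4 genes and above them in Nasvi2EG002950 and Nasvi2EG034576, F1GV replicate 3 stands apart in Nasvi2EG010626 and Nasvi2EG009254, and Nasvi2EG019818 and Nasvi2EG013911 are level.

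The steadiest members held their level in every library, replicate 1 included. The coefficient of variation of CPM over the 5 libraries had a median of 18.7% over the members, 16.2% over the next 100 genes by level and 23.9% over all tested genes. It was under 10% for 16 members (11.3% of tested genes and 21 of the next 100 genes) and over 30% for 18 (35.2% of tested genes and 17 of the next 100 genes). It did not follow the level within the list, with a Spearman's rho of 0.053 across the 100 genes. Nasvi2EG019818 had the lowest value, 4.16%, with 2139 and 2264 CPM in replicate 1 of F1VG and F1GV and 2278, 2088 and 2103 CPM in F1VG replicates 2 and 3 and F1GV replicate 3. Nasvi2EG013911 followed at 5.10%. Nasvi2EG005272 varied by 6.15%, with levels from 1783 to 2058 CPM, Nasvi2EG002084 by 6.43%, from 1013 to 1204 CPM, and Nasvi2EG004808 by 6.57%, from 1421 to 1676 CPM. With TMM factors the values of Nasvi2EG005272 and Nasvi2EG004808 were 10.6% and 10.9%. At the other end were Nasvi2EG003943 with 77.7%, Nasvi2EG004175 with 68.2%, Nasvi2EG010626 with 64.5%, Nasvi2EG017534 with 51.5% and Nasvi2EG008304 with 50.2%. Nasvi2EG008304 was nonetheless steady between the crosses in every pair.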

How the data were processed

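The authors deposited estimated counts for each OGS2 gene in each library, without scaling for depth or gene length. Reads were trimmed with Trimmomatic, aligned with TopHat to the Nv and Ng genomes and summarised with Cufflinks, HTSeq and BEDTools. Which counter gave the table, and whether strand was used, is not given in the sources used here.

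CPM was computed from column totals. For tests, rounded counts were fitted with edgeR 4.0.16 in R 4.3.3 (TMM factors, genes with mean CPM above 1 in a cross, quasi-likelihood test with the cross as only term, Benjamini-Hochberg adjustment over 12435 genes at 0.05), beside DESeq2 1.42.0. The test was checked on simulated counts, which had no split of replicate 1 and less spread than these libraries. That check does not show the power of the test here. Log2 ratios of CPM carry an offset of 0.5 CPM. Groups came from the sample titles. The members and the named genes (highest, at the limit, steadiest, most variable, most shifted, largest gains and losses of share, high in 1 library) were chosen with earlier results of these data known. Alternatives covered scaling, filters, terms, thresholds, choice of members and omission of each library.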

Additional observations from a re-analysis of the deposited data

How the results depend on the processing

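Counting error was at most 1.1% of any member's count, with reads taken as independent. The crosses had 3 and 2 libraries, and the median SE of the members' log2 fold change was 0.287, or 0.137 with the replicate 1 term. The count of members called between the crosses was 0 in 15 of 16 alternatives and 2 (Nasvi2EG010626 and Nasvi2EG009254) when only replicates 2 and 3 were fitted, a fit added after the data were seen in which F1GV is 1 library assumed to vary like F1VG and in which 401 genes were called in all. There the edgeR adjusted p was 0.0143 and 0.0238, with log2 fold changes of −1.37 and −1.21. With a single library omitted, the log2 fold change ran from −1.62 to 0.16 for Nasvi2EG010626, from −1.30 to 0.15 for Nasvi2EG009254 and from 0.068 to 1.23 for Nasvi2EG036430. The positive values of the first pair came without F1GV replicate 3. Of these fits, the one without F1VG replicate 2 alone has the same replicate numbers in both crosses.

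With the replicate block 0 members and 16 genes in all were called. Deviations from the cross means correlated at 0.839 for replicate 1 and 0.781 for replicate 3. F1GV has 2 libraries, so their deviations are equal and opposite, and both correlations use the same F1GV deviations. The replicate 3 value is therefore not separate evidence, and neither value shows that replicate numbers pair the libraries. No other call depended on this block.

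The difference in share of 3.91 points was 2.39 points with members chosen in replicate 1, 4.699 with members chosen in replicates 2 and 3, 3.12 for 50 genes, 5.07 for 200 genes and 3.56 for members with whole counts only. With equal weight of replicate 1 and replicates 2 and 3 it was 3.66 points. With a single library omitted it lay between 3.49 and 4.26. The count that moved between the crosses was 2 at a 25% difference and 0 to 2 with a single library omitted, the 2 being Nasvi2EG034404 and Nasvi2EG034405 without F1VG replicate 3. The count of steady members was 26 within 10%. The count higher in replicate 1 was 4 with TMM factors, 4 with relative log expression factors, 1 at 2-fold, and, in alternatives added after the data were seen, 15 with members chosen in replicate 1 and 2 with members chosen in replicates 2 and 3. The count lower in replicate 1 was 36 with either set of factors, 8 at 2-fold, 16 with members chosen in replicate 1 and 30 with members chosen in replicates 2 and 3. With members chosen by equal weight of replicate 1 and replicates 2 and 3, 7 were higher and 22 lower. The shifts of the 10 named genes kept their direction in all 80 alternatives. These genes were picked for large shifts without overlap, so omitting a library could not reverse them. Rescaling moved the shifts by far less than their size. The causes were not tested.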

Other observations

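Every library's own list of the 100 highest genes held some that were not members. Such lists held 84 and 82 members in replicate 1 of F1VG and F1GV. In F1VG replicates 2 and 3 and F1GV replicate 3 they held 90, 85 and 84. Libraries of replicate 1 shared many of their abundant genes. Their own lists of the 100 highest genes had 95 genes in common, and 13 of these were not members. The own lists of F1VG replicate 3 and F1GV replicate 3 had 92 genes in common, while those of F1GV replicates 1 and 3, which share the cross, had 68. How many of these were not members was not counted.

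Fractional counts, which can arise when a read is divided among genes, were found in 9 members, or 9 of 100 against 18.9% of tested genes. For 3 of them, Nasvi2EG018124, Nasvi2EG008526 and Nasvi2EG002726, the counts added up to whole numbers (within 0.001) in every library with those of the neighbouring gene in the table, Nasvi2EG018125, Nasvi2EG008528 and Nasvi2EG002725. The level of each of these members depends on how shared reads were divided. Besides Nasvi2EG034404 and Nasvi2EG034405, 6 pairs of members had IDs within 10 of each other, and the ratio of their counts varied over the libraries from 1.13-fold to 1.90-fold.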
